A study of Homo sapiens with 6 samples.

Results

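The S100 genes encode small calcium-binding proteins, and 10 of them were followed here across the 6 RNA-seq libraries of MDA-MB-231 cells: S100A2, S100A3, S100A4, S100A6, S100A10, S100A11, S100A13, S100A14, S100A16 and S100P. The members were picked by name, as the rows whose NCBI Gene ID belongs to one of these symbols, and all 10 were found among the 16623 genes of the files. MDA-MB-231 is a human triple-negative breast cancer line, grown here in medium with fetal bovine serum, so the results describe 1 line in culture. The cells received the solvent DMSO or PCI-24781, a histone deacetylase (HDAC) inhibitor, at a dose of 100 nM or 200 nM, and RNA was collected after 24 h or 48 h. Each dose and time has 1 library, so a difference of 2 libraries has no replicate error and is a description. A test was possible only for effects shared by several libraries. For these, limma was fitted to all 6 libraries with treatment and time as additive terms, which leaves 2 residual degrees of freedom and counts any difference in response between times as error. The study asked which genes the inhibitor acts on, and took an interest in calcium signalling.

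An S100 protein carries a pair of EF hands, helix-loop-helix folds that hold calcium, and works as a dimer that opens on calcium binding to grip a target protein. Several S100 proteins are known from breast cancer: S100A4, also called metastasin, binds non-muscle myosin and is linked to cell motility and metastasis, while S100A2 is an epithelial gene often lost in breast tumours. S100A10 is the exception in the family, since it no longer binds calcium and is held in a complex with annexin A2. Most S100 genes sit side by side in the epidermal differentiation region of chromosome 1, next to filaggrin and other genes of the skin barrier.

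Levels are given as FPKM (fragment counts scaled by transcript length and library size, deposited by the authors), so genes of different length can be compared. Changes are differences in log2(FPKM + 1), which understate changes of genes with low values. A gene was called when its difference reached 2-fold and one of the libraries compared had an FPKM of 1 or more. Steps between low FPKM values put the depth at about 15600000 to 18000000 fragments per library. There, 3 fragments from a 1 kb transcript give an FPKM between 0.167 and 0.192. The 48 h libraries of DMSO and 100 nM went against the direction at 24 h: 523 genes were called higher after 24 h with 200 nM, and of these 441 were lower and 77 higher in the 48 h library of 100 nM than in its DMSO library. Whether these 2 libraries carry the right labels is not settled by the files. An exchange of the 2 labels would turn the sign of every change of 100 nM 48 h against DMSO 48 h. It would also change the values of 200 nM 48 h against DMSO 48 h and the comparisons of 48 h with 24 h in DMSO and at 100 nM. The dose estimates and errors of the additive model would change as well. The cells had the profile of their line, with VIM between 1629 and 2053 FPKM, ESR1 at most 0.04, PGR at most 0.03 and CDH1 at most 0.39. ERBB2 was between 13.2 and 21.4 and EPCAM between 2.26 and 4.70. Of 7 myeloid markers 4 had rows, with a summed FPKM between 3.46 and 5.95. LYZ was between 2.37 and 4.54, CD14 between 0.28 and 1.47 and PTPRC between 0.76 and 1.01, and ITGAM did not exceed 0.01. S100A8, S100A9 and S100A12 had no row. Of the 4 keratinocyte markers only KRT10 had a row, between 9.82 and 14.7 FPKM. The 4 melanocyte or glial markers summed to between 1.61 and 10.2. PMEL had 0.27, 2.25 and 8.20 FPKM at 24 h in DMSO, 100 nM and 200 nM, and 2.27, 0.83 and 5.25 at 48 h. MLANA was between 1.10 and 1.91, S100B at most 0.10 and SOX10 at most 0.02. The part of these markers in the results was not tested. In a bulk library, fewer cells that express a gene and less RNA per cell cannot be told apart.

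The promoters of 4 members are shown because their expression patterns differ: S100A3 and S100A4 had the widest range across the libraries, S100A6 was the most abundant member, and S100A11 was lower at 200 nM at both times. The 250 bases before each start are from RefSeq (GRCh38.p14, strand as transcribed), in which all 10 members had an entry. Capitals mark every match, on either strand, to TATAAA for the TATA box, GGGCGG for the GC box, CCAAT for the CCAAT box, TGANTCA for the AP-1 site or CACGTG for the E-box. The S100A4 window is chr1:153545807-153546056, that of S100A3 is chr1:153549259-153549508, that of S100A6 is chr1:153535992-153536241 and that of S100A11 is chr1:152037005-152037254, all on the minus strand.
S100A4: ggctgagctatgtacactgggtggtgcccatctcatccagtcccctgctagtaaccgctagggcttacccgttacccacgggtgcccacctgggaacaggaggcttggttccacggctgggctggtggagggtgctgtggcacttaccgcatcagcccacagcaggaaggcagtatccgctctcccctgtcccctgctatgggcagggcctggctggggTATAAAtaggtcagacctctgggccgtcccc
S100A3: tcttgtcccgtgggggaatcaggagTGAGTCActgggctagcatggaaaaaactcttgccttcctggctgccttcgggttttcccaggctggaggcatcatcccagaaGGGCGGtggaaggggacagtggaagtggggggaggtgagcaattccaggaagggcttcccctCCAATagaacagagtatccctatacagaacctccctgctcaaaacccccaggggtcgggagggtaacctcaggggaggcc
S100A6: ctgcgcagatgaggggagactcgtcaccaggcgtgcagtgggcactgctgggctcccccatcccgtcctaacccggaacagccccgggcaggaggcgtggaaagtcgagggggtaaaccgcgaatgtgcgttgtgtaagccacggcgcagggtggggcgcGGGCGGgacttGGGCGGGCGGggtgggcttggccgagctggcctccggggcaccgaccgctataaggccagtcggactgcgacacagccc
S100A11: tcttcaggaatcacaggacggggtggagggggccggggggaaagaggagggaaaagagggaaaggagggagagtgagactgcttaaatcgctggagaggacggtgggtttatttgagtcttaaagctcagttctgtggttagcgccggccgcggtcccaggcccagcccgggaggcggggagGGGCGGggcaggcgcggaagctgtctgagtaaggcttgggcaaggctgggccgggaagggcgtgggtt
S100A4 had a TATA box from 31 bases before its start and no other match. S100A3, its neighbour, had none, and held a GC box, a CCAAT box and an AP-1 site. A check for a transcript start found one for the windows of S100A4, S100A6 and S100A11 but not for that of S100A3, so the S100A3 positions are less sure. S100A6 had GC boxes only, starting 90, 79 and 75 bases before its start (the last overlaps the one before it), 24 CpG dinucleotides and 70.0% G and C. S100A11 had 1 GC box, 68 bases before its start. Of 27305 genes with a promoter in the table (first listed start), 11.1% held the TATA motif, 42.3% the GC box, 33.0% the CCAAT box, 6.60% the AP-1 motif and 6.49% the E-box. The median G and C content of these windows was 58.0%. A match is a stretch of letters and not a bound site.

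The S100 genes of MDA-MB-231 cells ran from among the most abundant transcripts to almost none. S100A6 (NCBI Gene ID 6277), known as calcyclin, ranked between 17th and 46th of all genes in every library. S100A11 (Gene ID 6282), a partner of annexin A1, ranked between 82nd and 114th, and S100A10 (Gene ID 6281) between 118th and 151st. These 3 genes made up between 88.4% and 89.3% of the summed FPKM of the 10 members. The members together were lowest at 200 nM 24 h, with a summed FPKM of 2053 (0.490% of all FPKM), and highest at 100 nM 48 h, with 2982 (0.700%). S100A16 lay between 126 and 191 FPKM, S100A13 between 53.5 and 73.9, S100A4 between 14.5 and 41.0, S100A3 between 11.96 and 27.0 and S100A2 between 4.95 and 7.92. S100A14 and S100P stayed below an FPKM of 1 in all libraries. The order S100A6, S100A11, S100A10, S100A16, S100A13, S100A4, S100A3, S100A2 was the same in all 6 libraries. Over the libraries, the ranges of S100A11 and S100A10 touched (457.07 to 653 against 350.1 to 457.65), and those of S100A4 and S100A3 overlapped, while the other neighbours in this order had separate ranges. RefSeq holds 10 pseudogene copies of S100A11, and 0 of them have a row in the files, so fragments of such copies would be counted elsewhere or under S100A11.

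**Figure D1:**
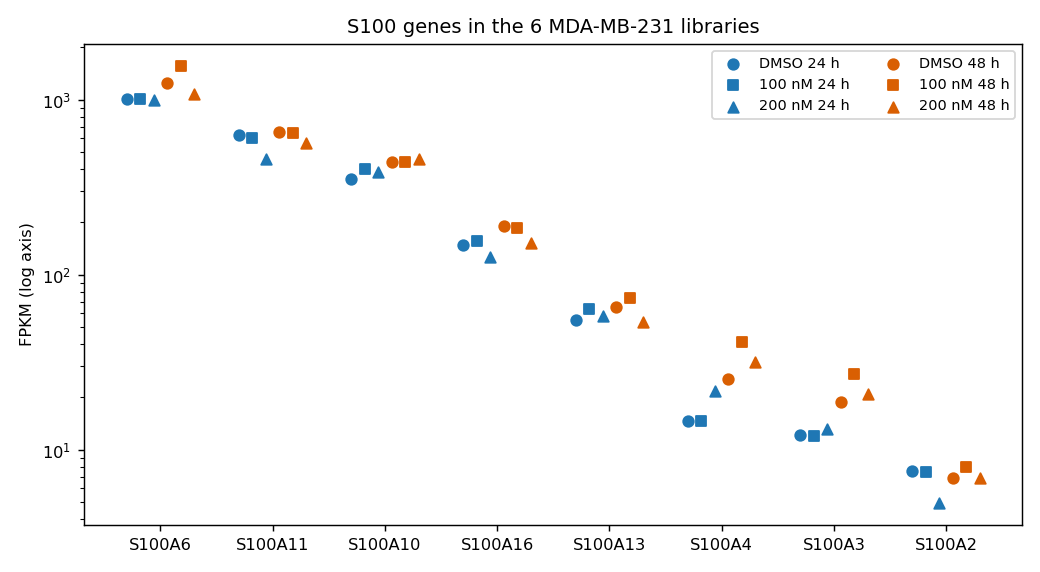
FPKM (log axis) of the 8 S100 genes that reached an FPKM of 1, with 1 point for each of the 6 libraries, blue for 24 h and orange for 48 h, circles for DMSO, squares for 100 nM and triangles for 200 nM PCI-24781. S100A6 lies at the top, between 989 and 1560 FPKM, and S100A2 at the bottom, between 4.95 and 7.92.

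With PCI-24781, none of the 8 S100 members that reached an FPKM of 1 differed by 2-fold in FPKM + 1 from DMSO at either dose or time. At 24 h, 0 of the 8 members with sufficient expression were called at 100 nM, where 1.48% of 11475 genes were, and 0 of 8 at 200 nM, where 5.96% of 11660 genes were. At 48 h, 0 of 8 were called at 100 nM, beside 0.469% of 11514 genes, and 0 of 8 at 200 nM, beside 0.266% of 11665. A count of 0 of 8 is close to these shares and says little about the members. At 24 h, the median change of the 8 members was -0.01 with the lower and 0.02 with the higher dose, beside 0.01 and 0.01 over all tested genes. At 48 h it was 0.18 with the lower and -0.10 with the higher dose, beside -0.01 and 0.01. The DMSO library of each time serves both doses. In the additive model over both times, 0 of 8 members passed an adjusted p (limma, Benjamini-Hochberg) of 0.05 at 100 nM or at 200 nM, as did 0% of the 11893 genes at either dose. At an unadjusted p under 0.05 there were 0 of 8 members at 100 nM, beside 0.227% of all genes. At 200 nM there were 2 of 8, S100A11 and S100A16, both with negative estimates, beside 15% of all genes. Leaving out 1 library of a treatment left only 1 in it, so estimates alone are given for the doses. Without 100 nM 24 h, S100A4, S100A3 and S100A6 had estimates of 0.73, 0.49 and 0.37 at 100 nM. Without 100 nM 48 h these were -0.06, -0.01 and -0.06, so they depended on the library used. At 200 nM, leaving out 1 DMSO or 200 nM library gave S100A11 between -0.44 and -0.21. The estimate of S100A16 then lay between -0.33 and -0.23.

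**Figure D2:**
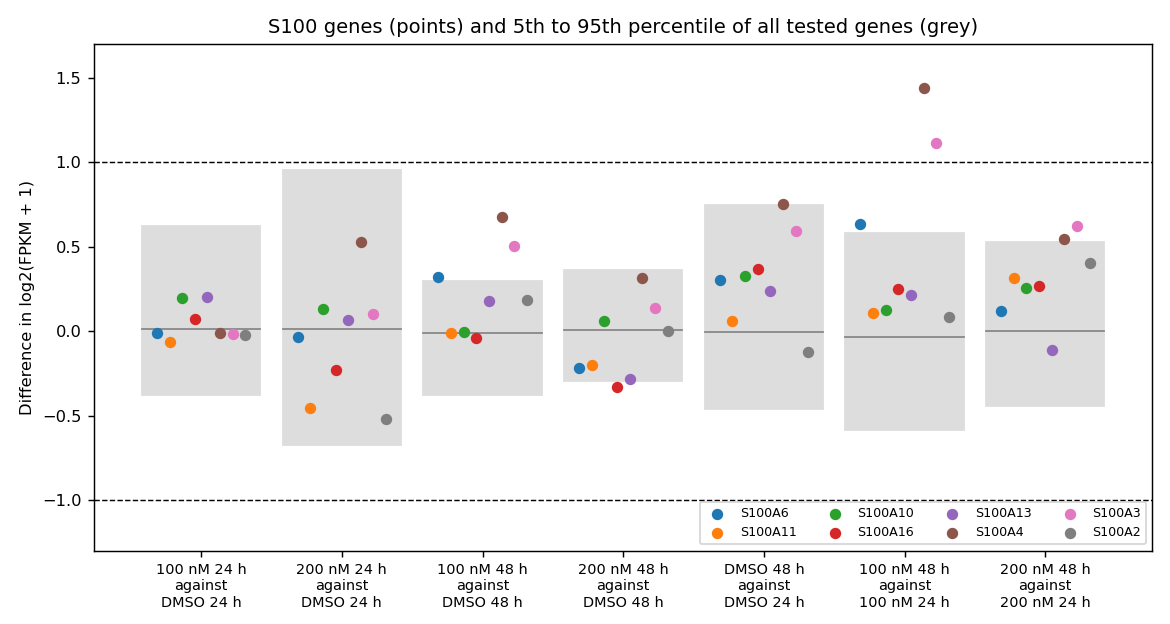
Difference in log2(FPKM + 1) of the 8 S100 genes (coloured points) in 7 comparisons of single libraries, with the 5th to 95th percentile of all tested genes in grey, their median as a line, and dashed lines at 2-fold. Only S100A4 (1.44) and S100A3 (1.11) pass the dashed line, in the comparison of 100 nM 48 h with 100 nM 24 h.

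S100A4 (Gene ID 6275, minus strand of chromosome 1 from 153516095 to 153518282 in the hg19 coordinates of the files) had the widest range of the members. After 24 h it had 14.6 FPKM in DMSO, 14.5 with 100 nM and 21.5 with 200 nM. After 48 h it had 25.4 in DMSO, 41.0 with 100 nM and 31.8 with 200 nM. All 48 h libraries were above all 24 h libraries, and within 48 h the lower dose was the highest. Against DMSO, S100A4 differed after 24 h by -0.01 with the lower and 0.53 with the higher dose, and after 48 h by 0.67 and 0.32. By the inferred depth and a mean transcript length of 583 bases, these values rest on about 148 to 431 fragments. The 95% Poisson intervals, which cover counting error only, were about 22.4 to 28.7 FPKM in DMSO 48 h and 37.3 to 45.1 at 100 nM 48 h. These intervals do not overlap, but the variation between cultures was not measured. With the 2 labels exchanged, the 0.67 would have the opposite sign and 200 nM 48 h would lie below DMSO.

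S100A3 (Gene ID 6274, chromosome 1 from 153519809 to 153521734), a cysteine-rich member best known from the hair cuticle, lies 1526 bases from S100A4 on the same strand. After 24 h it had 12.1 FPKM in DMSO, 11.96 with 100 nM and 13.1 with 200 nM. After 48 h it had 18.8, 27.0 and 20.7 in the same order. As for S100A4, the 24 h libraries were all below the 48 h libraries and 100 nM 48 h was the highest. The changes against DMSO were -0.02 and 0.10 after 24 h, then 0.50 and 0.14 after 48 h. The signs of the 0.50 and the 0.14 depend on the same 2 labels. The values at 48 h correspond to about 281, 417 and 277 fragments in DMSO, 100 nM and 200 nM.

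S100A6 (chromosome 1 from 153507076 to 153508717), which binds the ubiquitin ligase adaptor encoded by CACYBP, had 1013 FPKM in DMSO, 1006 with 100 nM and 989 with 200 nM after 24 h. After 48 h these were 1249, 1559.9 and 1072. The 24 h libraries were nearly equal, and the 48 h libraries were all higher. Its change against DMSO 48 h was 0.32 at 100 nM and -0.22 at 200 nM, and the sign of the first depends on these labels too. At 100 nM 48 h, S100A3, S100A4 and S100A6 exceeded the 95th percentile of all genes against DMSO 48 h, which was 0.30. No other member did, and the exchange would place these 3 on the lower side. At 24 h 0 of 8 members lay beyond the 5th or 95th percentile at either dose.

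S100A11 (chromosome 1 from 152004982 to 152009511) and S100A16 (Gene ID 140576, chromosome 1 from 153579359 to 153585644) were lower at 200 nM than in DMSO at both times. S100A11 had 628 FPKM in DMSO, 599.9 with 100 nM and 457 with 200 nM after 24 h, and 653, 647 and 568 after 48 h. At 100 nM it stayed within 4.45% of DMSO, and at 200 nM it was lower by 27.2% at 24 h and 13.1% at 48 h, log2 differences of -0.46 and -0.20. S100A16 had 148, 156 and 126 FPKM in DMSO, 100 nM and 200 nM at 24 h, and 191, 185 and 152 at 48 h. At 200 nM this was a difference of -0.23 at 24 h and -0.33 at 48 h, and at 48 h it lay below the 5th percentile of all genes (-0.30). With S100A6, 3 of the 8 members were lowest at 200 nM at both times, as were 22.5% of the 11893 genes that reached an FPKM of 1 in any library.

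S100A2 (Gene ID 6273, chromosome 1 from 153533090 to 153538306) was lowest at 200 nM 24 h. It had 7.55 FPKM in DMSO, 7.43 with 100 nM and 4.95 with 200 nM after 24 h, and 6.85, 7.92 and 6.86 after 48 h. The other libraries were close together and 200 nM 24 h stood below them, with a difference of -0.52 from DMSO 24 h. About 135 and 85 fragments stand behind the values of DMSO 24 h and 200 nM 24 h, with counting intervals of about 6.34 to 8.94 and 3.93 to 6.09 FPKM. At 48 h, 200 nM and DMSO differed by 0.00.

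S100A10 (chromosome 1 from 151955386 to 151966714) changed little. S100A13 (Gene ID 6284, chromosome 1 from 153591275 to 153606568) was lowest at 200 nM 48 h and highest at 100 nM 48 h. S100A10 had 350.1, 401 and 383 FPKM in DMSO, 100 nM and 200 nM at 24 h, and 439.6, 439 and 458 at 48 h. Its highest value was 1.31 times its lowest, the narrowest spread of the 8 members. S100A13, which takes part in the release of FGF1 from cells, had 55.2, 63.5 and 57.8 FPKM at 24 h and 65.3, 73.9 and 53.5 at 48 h. After 48 h it differed from DMSO by 0.18 with 100 nM and by -0.28 with 200 nM, and the sign of the 0.18 depends on the labels in doubt. S100A1, on the opposite strand, lies inside S100A13, and whether the counting used strand is not given in the sources used here, so their fragments may be mixed. S100A1 did not exceed 1.14 FPKM.

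**Figure D3:**
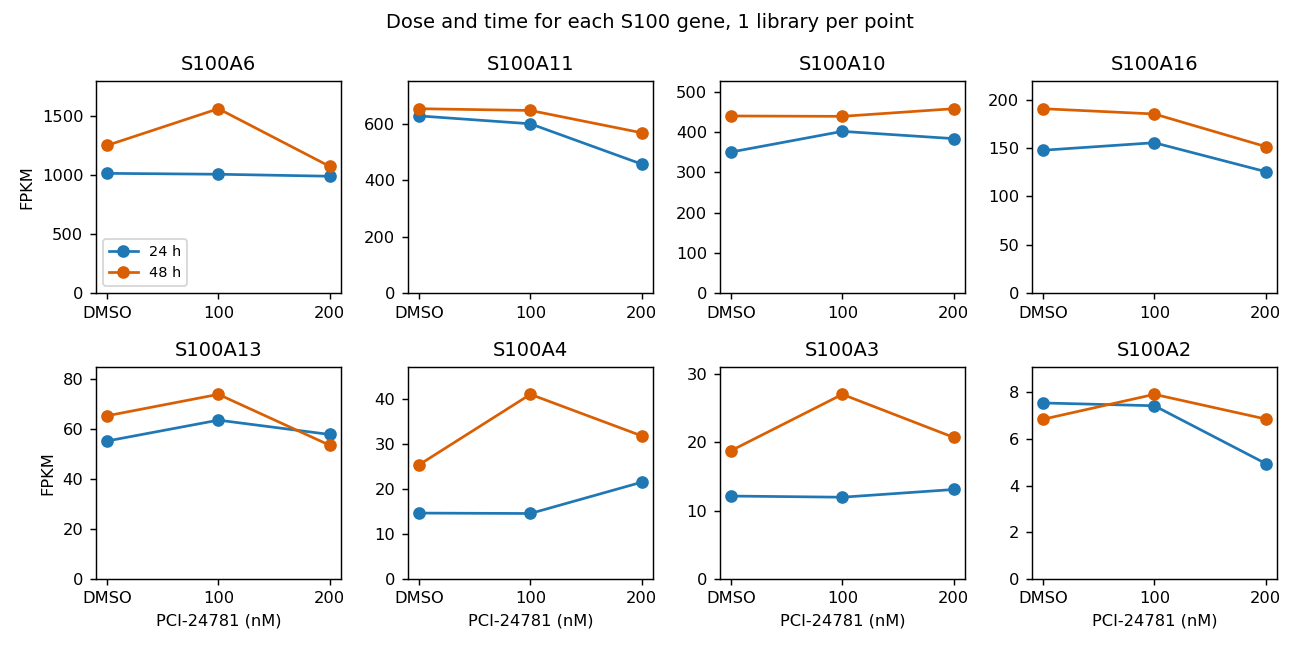
FPKM of the 8 S100 genes against the dose of PCI-24781 (DMSO, 100 nM, 200 nM), blue for 24 h and orange for 48 h, with 1 library per point and no error bars. For S100A6, S100A13, S100A4, S100A3 and S100A2 the orange line peaks at 100 nM (1560, 73.9, 41.0, 27.0 and 7.92 FPKM). These 5 of 8 members were highest in 100 nM 48 h, as were 17.2% of the 11893 genes reaching an FPKM of 1. For S100A6, S100A11 and S100A16 both lines are lowest at 200 nM.

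S100P and S100A14 were at the limit of detection. S100P (Gene ID 6286), the member outside chromosome 1 (chromosome 4 from 6695566 to 6698897), binds ezrin and the receptor RAGE. After 24 h it was listed at 0 in DMSO and had 0.12 FPKM with either dose. After 48 h it had 0.23 FPKM in DMSO, 0.69 with 100 nM and 0.66 with 200 nM. Taking 0.12 as 1 fragment and correcting for depth, these are close to 1, 1, 2, 6 and 5 fragments. The larger of these numbers fell at 48 h, but a difference of so few fragments was not resolved at this depth. S100A14 (Gene ID 57402, chromosome 1 from 153586731 to 153588808), an epithelial member, had a listed value of 0 in the 24 h library of 100 nM and between 0.10 and 0.18 FPKM elsewhere, about 2 or 3 fragments. No difference in S100A14 was detectable.

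Most of the 8 tested S100 members were higher at 48 h than at 24 h. From 24 h to 48 h, the median change of the 8 members was 0.31 in DMSO, 0.23 with 100 nM and 0.29 with 200 nM, while that of all tested genes was -0.00, -0.04 and -0.00. Of the 8 members, 7 were higher at 48 h in DMSO, 8 at 100 nM and 7 at 200 nM, and of all tested genes 49.6%, 45.1% and 49.5% were. These 3 comparisons have no library in common. S100A3, S100A4, S100A6, S100A10, S100A11 and S100A16 were higher at 48 h in all 3 treatments, 6 of 8 members, as were 18.5% of the 11893 genes reaching an FPKM of 1. For S100A3, S100A4, S100A6 and S100A10 every 48 h library exceeded every 24 h library, which held for 11.3% of these genes. This way of counting was chosen after the values were seen, and neighbouring genes need not vary independently. The other S100 family genes that could be tested, between 2 and 3 of them, had medians of 0.30, -0.53 and -0.34 in DMSO, 100 nM and 200 nM.

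In the additive model, which was also added after the values were seen, 0 of 8 members passed an adjusted p of 0.05 for time, beside 0.513% of 11893 genes. S100A3 had an estimate of 0.78 ± 0.14 (SE, n = 3 libraries per time) and a limma adjusted p of 0.076. S100A4 had 0.91 ± 0.18 and a limma adjusted p of 0.091. At an unadjusted p under 0.05 there were 5 of 8 members, S100A3, S100A4, S100A6, S100A10 and S100A16, beside 15.9% of all genes. Leaving out each library in turn gave limma adjusted p-values between 0.056 and 0.24 for S100A3 and between 0.073 and 0.22 for S100A4. In these fits 3 or 4 members had an unadjusted p under 0.05, beside 10.8% to 16.6% of all genes. Each of them left 1 residual degree of freedom.

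By the 2-fold limit, 2 of 8 members were called from 24 h to 48 h at 100 nM, S100A4 with a log2 difference of 1.44 and S100A3 with 1.11, where 1.82% of 11556 genes were called. In DMSO 0 of 8 were called, beside 2.62% of 11490 genes, and at 200 nM 0 of 8, beside 0.927% of 11760 genes. The comparison at 200 nM uses neither of the 48 h libraries that went against the direction at 24 h, and had S100A3 at 0.63 and S100A4 at 0.54, both above the 95th percentile of all genes (0.53). In DMSO, S100A4 had 0.75 and S100A3 0.59, and the 95th percentile was 0.75. When the 48 h libraries were set against DMSO 24 h, S100A4 differed by 1.43 and 1.07 with the lower and higher dose, and S100A3 by 1.09 with the lower dose.

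The members on chromosome 1 span 1.65 Mb (151955386 to 153606568), with 21 genes in the files. These are 9 members, 8 other S100 family genes and 4 further genes, none of which exceeded 0.16 FPKM. S100A6, S100A4 and S100A3 lie within 13.02 kb of each other by their start sites. S100A5, the gene between S100A6 and S100A4, had 0.48, 1.25 and 1.26 FPKM at 24 h and 1.47, 0.56 and 1.57 at 48 h in DMSO, 100 nM and 200 nM. At 100 nM 48 h it was low where both of its neighbours were highest, with a change of -0.66 against DMSO 48 h. Among the fused S100 genes of the skin barrier, filaggrin (FLG) had 1.33, 2.05 and 2.36 FPKM at 24 h and 1.12, 0.92 and 1.58 at 48 h. Of 18 other S100 family genes listed, 10 had rows, between 2 and 3 were expressed enough to be tested in each comparison, and 0 were called in any of the 7.

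**Figure D4:**
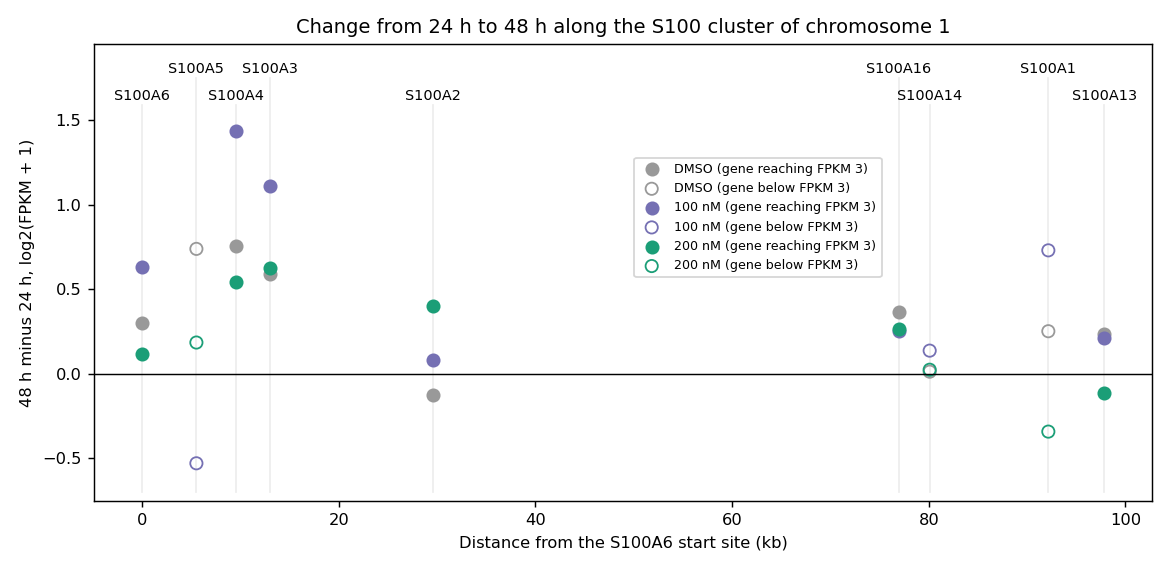
Change from 24 h to 48 h in log2(FPKM + 1) for the S100 genes within 100 kb of S100A6, by distance of their start sites from that of S100A6, in DMSO (grey), 100 nM (purple) and 200 nM (green); open circles are genes that did not reach 3 FPKM. S100A4 and S100A3 have the highest filled points, and the filled points of S100A6, S100A4, S100A3 and S100A16 are all above 0.

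The genes whose profile over the 6 libraries was most like that of S100A4, of 1234 genes whose log2(FPKM + 1) ranged over at least 1, were CLIC3 (Pearson r = 0.99), RAB37 (r = 0.99) and ALDOC (r = 0.99). CLIC3, a chloride intracellular channel gene, had 2.72, 2.95 and 4.14 FPKM at 24 h and 5.68, 8.89 and 7.44 at 48 h. ALDOC, which encodes a glycolytic aldolase, had 3.49, 3.47 and 6.78 FPKM at 24 h and 10.9, 18.8 and 11.2 at 48 h. For S100A3 they were GGT1 (r = 0.99), RRAD (r = 0.99) and CCNG2 (r = 0.98). With 6 points and many genes compared, such values are a description.

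Genes of known S100 partners and receptors were read as a second list, of which 21 of 23 had rows. The 5 annexins stayed between 75.7 and 1123 FPKM, and 0 of them were called in any comparison. ANXA2, which holds S100A10, had 1028, 973 and 1123 FPKM at 24 h and 889, 928 and 951 at 48 h in DMSO, 100 nM and 200 nM. ANXA1, the partner of S100A11, had 403, 459 and 510.4 FPKM at 24 h, a difference of 0.34 at 200 nM, where S100A11 itself was lower. ANXA5 differed by 0.43 at 200 nM 24 h. ANXA11 had 81.3, 75.7 and 76.5 FPKM after 24 h and 91.7, 119 and 89.6 after 48 h, so its highest value was in the same library as that of S100A6. MYH9, the myosin bound by S100A4, stayed between 194 and 249.9 FPKM. CACYBP was 97.6 FPKM in DMSO 24 h and 69.3 at 200 nM 24 h, a difference of -0.49, and between 70.1 and 75.6 at 48 h. Of the receptors, AGER, which encodes RAGE, was low at 1.23 to 1.65 FPKM, and TLR4 had 5.79, 10.8 and 10.0 at 24 h and 9.02, 7.29 and 13.9 at 48 h.

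At 100 nM 24 h, 0 of 19 tested partner genes were called, and at 200 nM 24 h 2 of 20 were, both higher, beside the 1.48% and 5.96% of all genes. PLAT, the tissue plasminogen activator gene, had 11.6, 20.4 and 30.1 FPKM at 24 h in DMSO, 100 nM and 200 nM, a difference of 1.30 at 200 nM. MYH10 went from 0.01 to 1.42 FPKM, with DMSO at the limit of detection. At 48 h, FGF1, the growth factor released with S100A13, was called lower at 100 nM (-1.16), with 9.06 FPKM in DMSO, 3.50 at 100 nM and 10.3 at 200 nM. S100A13 was highest in the same library, so the gene and its partner went in opposite directions there. Both signs would turn with the labels of DMSO 48 h and 100 nM 48 h exchanged. After 24 h, FGF1 had 4.81 FPKM in DMSO and 9.99 at 100 nM. The median change of the tested partner genes was 0.14 and 0.26 for the lower and higher dose at 24 h, and -0.03 and 0.00 at 48 h, beside 0.01, 0.01, -0.01 and 0.01 over all tested genes.

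Among other EF-hand calcium-binding genes, 25 of 29 listed had rows and 23 were tested. Of these, 2 were called at each dose at 24 h, where 0 of 8 S100 genes were and 1.48% and 5.96% of all genes. EFHD1, a mitochondrial EF-hand gene, had 4.87, 11.04 and 12.8 FPKM at 24 h (differences of 1.04 and 1.23) and 10.8, 8.13 and 12.4 at 48 h. CALB2, the calretinin gene, had 1.12, 7.52 and 11.3 FPKM at 24 h and 7.34, 3.53 and 14.5 at 48 h, differences of -0.88 and 0.89 from DMSO 48 h. Both genes were also called between the DMSO libraries, higher after 48 h, with a difference of 1.98 for CALB2 and 1.004 for EFHD1. At 48 h, 0 of 23 were called at either dose. The median change of the EF-hand genes was 0.10 and 0.14 at 24 h, and -0.11 and -0.02 at 48 h. Whether the S100 genes and the other EF-hand genes differ was not tested.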

How the data were processed

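Total RNA of MDA-MB-231 cells went to a sequencing company for library construction (mRNA enrichment or rRNA depletion). The authors deposited FPKM values with 2 decimals for each NCBI Gene ID; Bowtie2, RSEM and hg19 are named in the submitters' processing notes, with no versions given. The files hold 16623 genes, of which 16585 were named from the RefSeq table of GRCh38.p14. Coordinates of genes are hg19, and promoters GRCh38.p14, with chromosome 8 left out of the promoter shares.

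Changes are differences in log2(FPKM + 1), called at 2-fold where one of the libraries compared had an FPKM of 1 or more. No count test was run, since the files hold no counts, and differences of single libraries have no p-value. Effects shared by libraries were tested with limma (trend, Benjamini-Hochberg) on log2(FPKM + 1) of the 11893 genes reaching an FPKM of 1, with treatment and time as additive terms. Depth was inferred from the steps of low FPKM values in transcripts of 400 to 1500 bases (GENCODE release 29 lengths), with 250 to 293 genes per library. It is approximate: for S100P the step implied a transcript of 476 bases, where GENCODE gives 1279. Intervals are exact Poisson.

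The members and lists were chosen with earlier results of these data known. Named genes are all members, the other S100 family genes, the partner and EF-hand lists, genes between the outermost members of chromosome 1, and the 3 genes most like each of the 2 members with the widest range. The 2 comparisons of 48 h with 24 h within a dose, the use of the other DMSO library as reference, and the additive model were added after the values were seen. Alternatives were pseudocounts of 0.1 and 0.01, other filters, TPM, median-of-ratios factors and a 1.5-fold limit. The self-test on simulated pairs, with counting error only, called 100 of 100 genes raised 4-fold, 100 of 100 lowered 4-fold and 0 of 11037 unchanged genes. For the time effect of the model it called 100 of 100 raised 2-fold, 99 of 100 lowered 2-fold and 17 of 11693 unchanged genes. There the changed genes had a mean log2(FPKM + 1) above 2, and independent noise was drawn with the fitted variances. No dose effect or difference in response between times was simulated, so the rate of calls in the real libraries was not measured. Python 3.11.15, numpy 2.4.6, pandas 2.3.3, scipy 1.17.1 and matplotlib 3.10.9, with R 4.3.3 and limma 3.58.1, were used.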

Additional observations from a re-analysis of the deposited data

Results flagged for a closer look

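For 2 members the doses at 48 h lay on opposite sides of DMSO by at least 0.1 on the log2 scale. S100A6 differed from DMSO 48 h by 0.32 at 100 nM and by -0.22 at 200 nM. S100A13 differed by 0.18 at 100 nM and by -0.28 at 200 nM. With the labels of DMSO 48 h and 100 nM 48 h exchanged, both doses would lie below DMSO for both members. The difference between the doses at 48 h was not tested, since each has 1 library, and both use the same DMSO library. Of the 11893 genes reaching an FPKM of 1, 21.2% lay on opposite sides in this way. Between 24 h and 48 h, 0 of the 8 members did at 100 nM, beside 32.7% of all genes, and 0 at 200 nM, beside 7.37%. All of these counts use the DMSO 48 h library and so depend on the same labels.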

How the results depend on the processing

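The labels give no replicate numbers; with treatment as a block for time, the additive model called 0 members, also without any 1 library. Against DMSO of the same time, 0 members were called in any of the 4 comparisons with pseudocounts of 0.1 or 0.01, no filter, a filter on both libraries, TPM or median-of-ratios factors. With a 1.5-fold limit, 1 member (S100A4) was called at 100 nM 48 h, and from 24 h to 48 h 2 (S100A3 and S100A4) in DMSO, 3 (S100A3, S100A4 and S100A6) with 100 nM and 1 (S100A3) with 200 nM. TPM also gave 3 with 100 nM (S100A3, S100A4 and S100P). In the main setting, the 95th percentile of all genes from 24 h to 48 h was 0.75 in DMSO, 0.58 with 100 nM and 0.53 with 200 nM. With the DMSO library of the other time as reference, 2 members were called among the 48 h changes with 100 nM and 1 with 200 nM. The median change of the members was then -0.21 and -0.37 for the lower and higher dose at 24 h, and 0.37 and 0.059 at 48 h. The share of all genes called was not counted under the 1.5-fold limit, TPM or the other reference, so these member counts say little about the members. The median of the higher dose at 48 h, -0.10 over 8 members, was 0.030 with no filter, which let in all 10, and 0.022 with TPM, which let in 9. Against DMSO 24 h, PLAT in the 48 h library of 100 nM turned from -0.12 to 1.02. Only the reference changed, and PLAT was higher by 1.14 in DMSO 48 h than in DMSO 24 h. Why the DMSO libraries differ was not tested. S100P and S100A14 rest on too few fragments for a comparison.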
